A study of Mus musculus with 15 samples.

Results

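Tumor cells change their expression when they leave the culture vessel and grow as a tumor, and the interaction analysed here asks whether 2 mouse lung neuroendocrine carcinoma lines change in the same way. For each gene, the log2 change from cultured cells to allograft tumors in the small cell line (57SCLC_allo minus 57SCLC_cell) was compared with the same change in the large cell line (46LCNEC_allo minus 46LCNEC_cell). The difference of the 2 changes is called the interaction below. A positive interaction means that 57SCLC moved further up, or less far down, than 46LCNEC, and a negative one means the opposite. All values per gene below are normalized counts, gene-assigned reads scaled by the authors for library depth, and an interaction is given on the log2 scale with its standard error (SE) and the Benjamini-Hochberg adjusted p of limma. The comparison used 12 of the 15 samples of the series, 3 in each of 4 groups, all of them bulk poly-A RNA sequencing, and left out the 3 normal lungs. Of the 55359 genes listed, 18440 reached 10 normalized counts in at least 3 of the 12 samples and were tested.

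Both lines came from lung tumors of QKO mice. These animals lack Rbl1 and carry floxed alleles of Rb1, Trp53 and a further tumor suppressor, which Cre recombinase removes in the infected cells. 46LCNEC was established from a large cell neuroendocrine carcinoma after intratracheal Ad-CMVcre, an adenovirus with Cre under a general promoter. 57SCLC was established from a small cell carcinoma after Ad-K5cre, in which the keratin 5 promoter restricts Cre. The same medium served both, RPMI with fetal calf serum, insulin, transferrin and selenium, mouse EGF and hydrocortisone, and RNA was taken from 3 dishes of 46LCNEC and 3 flasks of 57SCLC at a single passage per line. Tumors grew from cells of those passages, injected under the skin with Matrigel into immunocompetent QKO mice of the syngeneic background. Each histology is therefore represented by 1 line, and line, histology, Cre virus, passage and way of growing in culture cannot be told apart. The labels of dishes and flasks also hold date-like strings that differ between the lines, and what they mark is not stated. Dishes, flasks and tumors of a line share their cells of origin, so the p-values measure the spread among these samples only.

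Small cell lung cancer lines commonly grow as floating aggregates with a neuroendocrine and epithelial program, whereas cells that attach to plastic spread, build integrin contacts and switch on matrix, actin and Yap target genes. In a subcutaneous tumor, growth factors, serum lipids and hydrocortisone of the medium are gone, oxygen falls with distance from vessels, and fibroblasts, endothelial cells and macrophages of the host contribute RNA. A bulk profile adds all of these up. Fewer cells of a type and less RNA per cell cannot be told apart in it, and neither can RNA of the carcinoma cells and RNA of the host, since host and tumor are both mouse.

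The 12 libraries held 9480244 to 44876572 gene-assigned reads, with the 57SCLC tumors the shallowest group. Of the cultures, flask C of 57SCLC stood apart. Its counts differed from those of flasks A and B by a chi-square per degree of freedom of 144 and 127, against 2.8 between A and B, and the 46LCNEC tumors differed among themselves by 92.6 to 133. The 18S ribosomal RNA entry Rn18s-rs5, which poly-A selection should deplete, took the most reads in every library. It held 2.49% to 3.21% of reads in the 46LCNEC dishes and 6.69% to 11.5% in the 46LCNEC tumors, 1.08% and 1.15% in 57SCLC flasks A and B against 4.63% in flask C, and 1.96% to 5.85% in the 57SCLC tumors. The share was thus higher in tumors than in dishes of 46LCNEC and set flask C apart from the other flasks, and its part in the results below was not tested. The labels were checked on neuroendocrine and epithelial genes. Chga, the granule protein chromogranin A, averaged 9524 ± 502 normalized counts (mean ± SD, n = 3) in the 57SCLC flasks and 4.23 ± 2.2 in the 46LCNEC dishes. Epcam, an epithelial adhesion protein, averaged 13134 ± 559.7 and 21 ± 3.23, while Ncam1, a neural adhesion protein used to diagnose neuroendocrine carcinoma, was present in both (5113 ± 1167 and 29936 ± 1464). The 46LCNEC cultures thus held the neuroendocrine label on Ncam1 and not on chromogranin A. Of the deleted genes, Rbl1 was still counted in every library, at 1491, 1701 and 1664 normalized counts in the 46LCNEC dishes and 2730.2, 2747 and 3166 in the 57SCLC flasks, and its interaction was 0.06 ± 0.19 (SE, adjusted p = 0.824). The interaction was -1.39 ± 0.60 (SE, adjusted p = 0.0874) for Rb1 and 0.61 ± 0.16 (SE, adjusted p = 0.00976) for Trp53, the latter under the size threshold. Gene counts over a whole locus do not show a deletion of single exons, so these values check nothing about the alleles.

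Of 18440 genes tested, 1983 (10.8%) had a higher and 1250 (6.78%) a lower interaction at a limma adjusted p of at most 0.01 and a size of at least 1 on the log2 scale. In most of them the change was called in a single line. Of the 3233 interaction genes, 1577 changed in 46LCNEC only, 846 of them up and 731 down, and 754 in 57SCLC only, 669 up and 85 down. In a further 140 the gene rose in 57SCLC and fell in 46LCNEC, and in 40 it fell in 57SCLC and rose in 46LCNEC. Another 371 changed the same way in both lines by unequal amounts, and 351 passed the threshold in the interaction and in neither line. The 57SCLC line moved mostly upward, with 2428 genes up (13.2%) and 286 down (1.55%). The 46LCNEC line had 2872 genes up (15.6%) and 1744 down (9.46%). The number of genes that fell in 57SCLC changed when single libraries of either line were left out. It was 185, 187 and 202 without flask A, B or C and 352 without 46LCNEC tumor 321. It was 705 when samples were weighted by their spread.

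**Figure D1:**
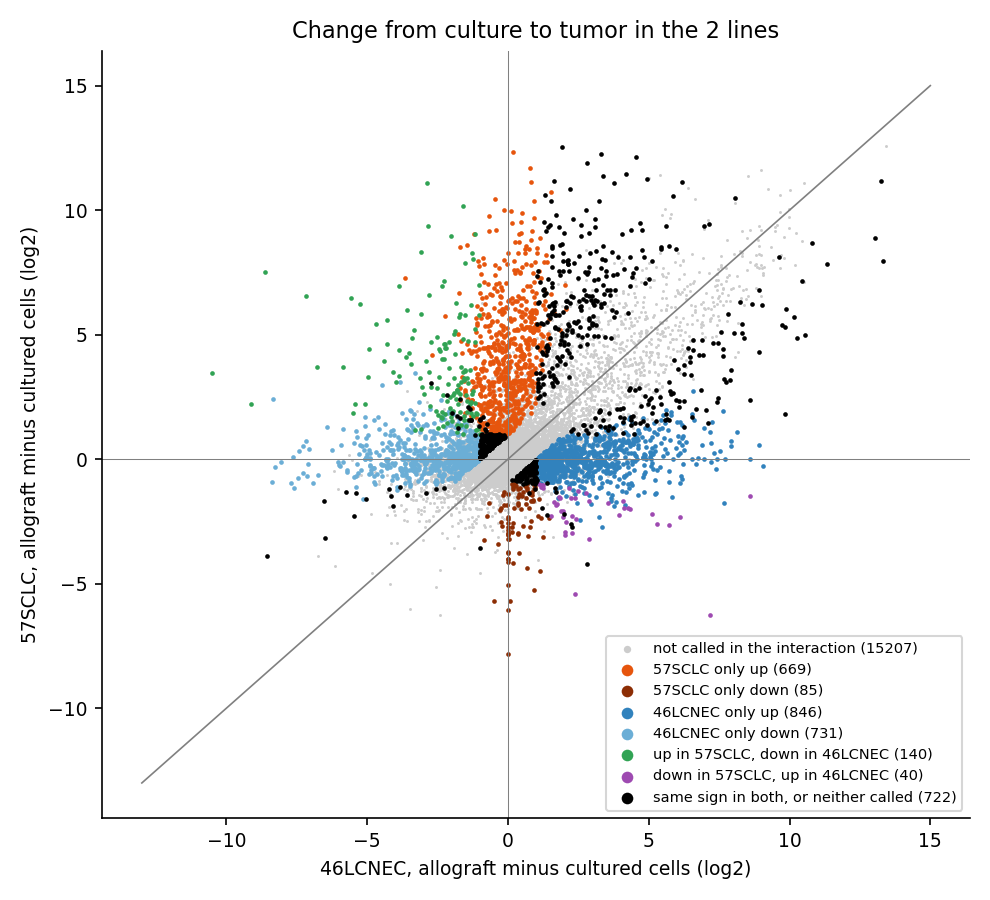
Change from cultured cells to allograft tumors of every gene tested, on the log2 scale of the normalized count plus 1, in 46LCNEC (horizontal axis) and 57SCLC (vertical axis); each point is a gene, the grey diagonal marks equal changes, and colors give the pattern of the 3233 genes called in the interaction. Points lie along both axes as well as along the diagonal: 846 genes rose and 731 fell in 46LCNEC only, and 669 rose and 85 fell in 57SCLC only.

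The lines also shared part of the response. Across genes the changes of the lines had a Pearson correlation of 0.49, given as a description since genes of the same libraries are not independent. Outside the interaction calls, 871 genes rose and 70 fell in both lines. Only for 71 of these 941 did the 95% interval of the interaction lie within 1 of 0, so for the rest a difference of more than 2-fold between the lines was not excluded by these 12 samples. Among the genes called in the interaction, the log2 difference between the lines was smaller in tumors than in culture for 2370, or 73.3%, against 58.8% of all genes tested. Of the 1983 genes with a higher interaction, 1664 were higher in the 46LCNEC than in the 57SCLC cultures. Of the 1250 with a lower interaction, 1096 were higher in the 57SCLC cultures. The interaction is the line difference in tumors minus that in culture. Genes picked by it therefore tend to these directions by construction, noise in the cultures included. These shares describe the called genes and are no separate sign that the lines converge. A group at or under 3 reads in every library limits what a fold can show. This was the case for 756 interaction genes, 51 of which were at that floor in both cultures.

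**Figure D2:**
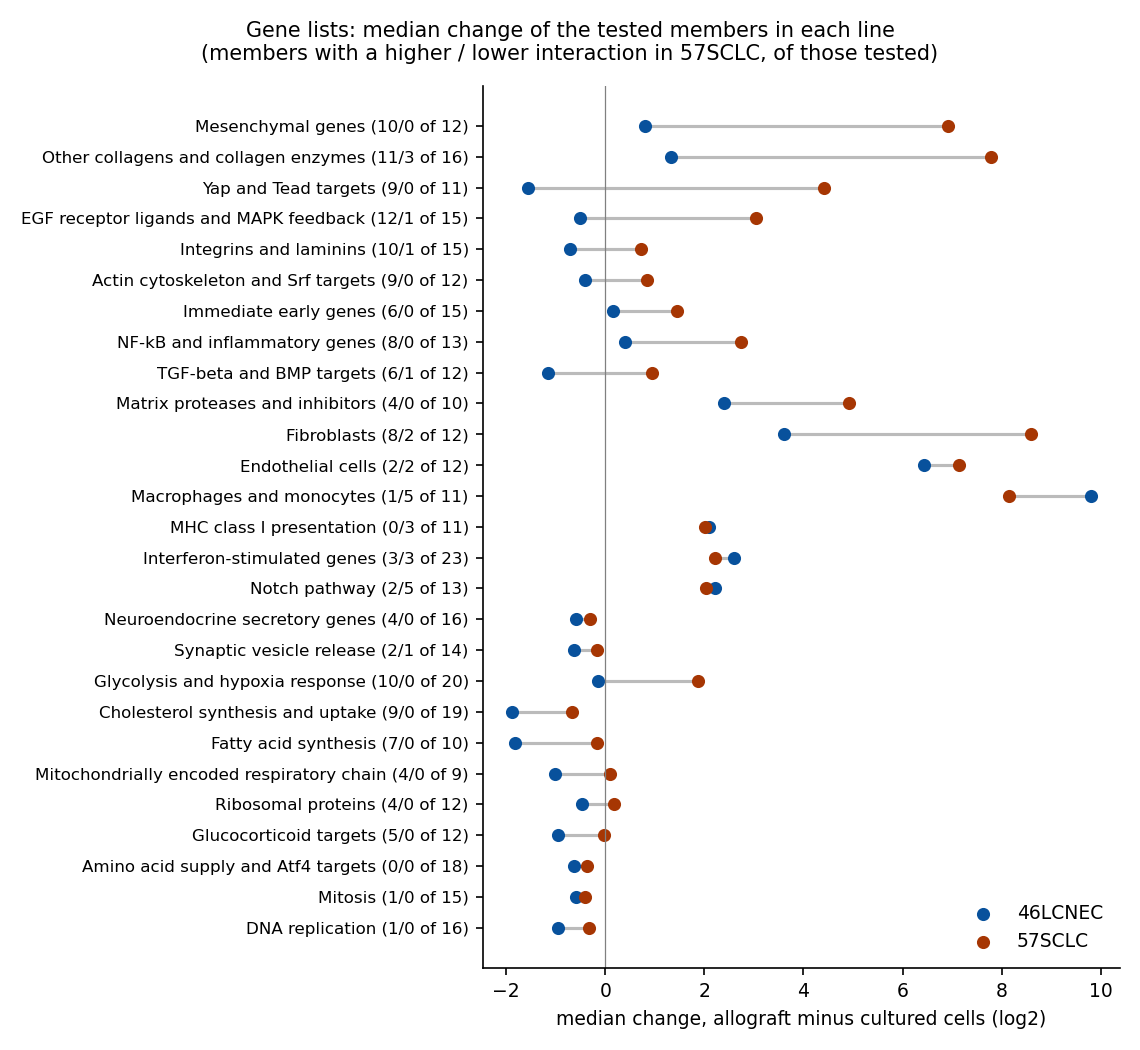
Median change from culture to tumor over the tested members of 27 of the 44 gene lists, on the log2 scale, in 46LCNEC (blue) and 57SCLC (brown); the numbers beside each name are the members with a higher and a lower interaction, of those tested. The 57SCLC medians lie far to the right of the 46LCNEC medians for mesenchymal, collagen, Yap target and MAPK feedback genes, and the 46LCNEC medians lie left of 0 for cholesterol and fatty acid synthesis.

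Genes of the mesenchymal state and of the extracellular matrix differed widely between the lines. The ones named below were nearly silent in the floating 57SCLC cells, abundant in the attached 46LCNEC cells, and rose steeply in the 57SCLC tumors. Of 12 mesenchymal genes tested, 10 had a higher and 0 a lower interaction. Of these genes 11 rose in 57SCLC, while 3 rose and 1 fell in 46LCNEC. The median change was 6.92 in 57SCLC and 0.81 in 46LCNEC, where the medians of all genes were 0.02 and 0.01. The median interaction was 5.69, and 5.58 with groups at the floor set to 3 reads.

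Vim encodes vimentin, the intermediate filament of mesenchymal cells (chromosome 2, 13578738 to 13587639 of GRCm39). It read 101977, 101345 and 118251 normalized counts in the 46LCNEC dishes, 68908, 63891 and 67342 in the 46LCNEC tumors, 10.4, 16.3 and 18.8 in the 57SCLC flasks and 10686, 6043 and 11102 in the 57SCLC tumors. The flasks were far below every other sample, a rise of 613-fold in 57SCLC, and the interaction was 9.83 ± 0.33 (SE, adjusted p = 3.58e-09). Fn1, the matrix glycoprotein fibronectin, read 6.55, 6.63 and 2.08 normalized counts in the 57SCLC flasks, 12424, 10446 and 15644 in the 57SCLC tumors, 93873, 84522 and 78464 in the 46LCNEC dishes and 144382, 237567 and 100215 in the 46LCNEC tumors, a rise of 2523-fold in 57SCLC and an interaction of 10.32 ± 0.50 (SE, adjusted p = 4.29e-08). Sparc, a collagen-binding matricellular protein, read 94442, 99643 and 105964 normalized counts in the 46LCNEC dishes, 208117, 195376 and 127649 in the 46LCNEC tumors, 9.27, 7.24 and 1.56 in the 57SCLC flasks and 22078, 14838 and 24061 in the 57SCLC tumors, with an interaction of 10.90 ± 0.58 (SE, adjusted p = 8.83e-08). In 46LCNEC the dishes and tumors of these genes did not overlap either, Vim being lower and Fn1 and Sparc higher in tumors, but none of these changes passed the threshold. Transcription factors of the mesenchymal state shared the pattern. Zeb2, a repressor of E-cadherin, read 0, 0 and 0.521 in the flasks and 1836, 1046 and 1768 in the 57SCLC tumors, with an interaction of 9.43 ± 0.31 (SE, adjusted p = 3.45e-09). Twist1 (6.46 ± 0.52, adjusted p = 2.43e-06), a basic helix-loop-helix factor, and Prrx1 (9.31 ± 0.69, adjusted p = 1.15e-06), a factor of limb and connective tissue mesenchyme, also rose in 57SCLC only.

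**Figure D3:**
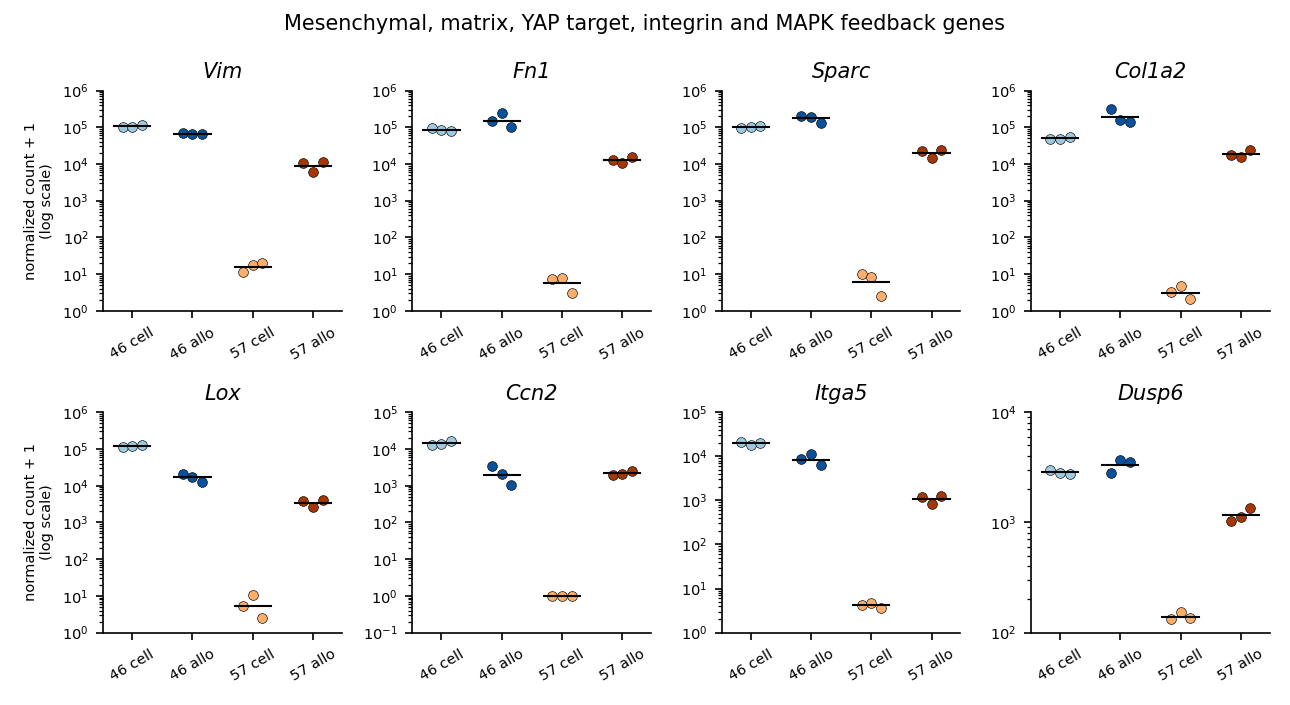
Normalized counts plus 1 of 8 genes on log axes, with a point for each of the 12 samples and a bar at the mean of the log values: 46LCNEC dishes, 46LCNEC tumors, 57SCLC flasks and 57SCLC tumors from left to right. All 8 genes are lowest in the 57SCLC flasks and rise in the 57SCLC tumors; Lox and Ccn2 fall in the 46LCNEC tumors.

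Collagens and the enzymes that cross-link them gave 11 higher and 3 lower interactions among 16 genes tested. Col5a2 and Col6a3, chains of fibrillar collagen V and of beaded collagen VI, had no more than 1 read in any flask. In the 57SCLC tumors Col5a2 read 2317, 1846 and 2895 and Col6a3 6346, 3036 and 6901 normalized counts. The interactions were 9.53 ± 0.35 (SE, adjusted p = 7.03e-09) and 9.08 ± 0.53 (SE, adjusted p = 1.72e-07), and both genes rose in 46LCNEC too, by 1.65 ± 0.24 and 2.80 ± 0.37. Lox, the lysyl oxidase that starts collagen cross-links, went opposite ways. It read 115447, 122588 and 125716 normalized counts in the 46LCNEC dishes, 21249, 17330 and 12872 in the 46LCNEC tumors, 4.36, 9.65 and 1.56 in the 57SCLC flasks and 3756, 2646 and 4062 in the 57SCLC tumors, so that the 46LCNEC dishes were the highest and every tumor of both lines lay between them and the flasks. Its interaction was 12.20 ± 0.55 (SE, adjusted p = 2.83e-08). Loxl3, a relative, went the same ways with an interaction of 10.20 ± 0.40 (SE, adjusted p = 8.83e-09), and Plod2, which hydroxylates collagen lysines, rose in 57SCLC only, an interaction of 7.38 ± 0.40 (SE, adjusted p = 8.83e-08). The members with a lower interaction included Col4a1 and Col4a2, the paired chains of basement membrane collagen, which are named here after their values were seen. Col4a1 read 80.7, 62.9 and 54.6 normalized counts in the 46LCNEC dishes, 2751, 4888 and 2646 in the 46LCNEC tumors, 572, 602 and 878 in the 57SCLC flasks and 1896, 2162 and 2047 in the 57SCLC tumors and Col4a2, its neighbour, moved with it. Both rose in both lines, further in 46LCNEC, with interactions of -4.04 ± 0.34 for Col4a1 and -4.01 ± 0.24 for Col4a2 (adjusted p = 3.29e-06 and 2.36e-07).

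Fibroblast markers moved with these genes. The summed level of the 12 fibroblast markers was 747 to 918 normalized counts in the flasks and 45706 to 69889.8 in the 57SCLC tumors, and 86887 to 97939.6 in the dishes and 452614 to 919080 in the 46LCNEC tumors. Of the 12, 11 rose in 57SCLC and 10 in 46LCNEC, and 8 had a higher and 2 a lower interaction. Several of them are collagen genes that 46LCNEC cells expressed in culture. Col1a1 read 20720, 19769 and 22399 in the dishes and 2.18, 1.81 and 4.17 in the flasks, and its interaction was 8.96 ± 0.45 (SE, adjusted p = 5.94e-08). Col1a2 (10.62 ± 0.46, adjusted p = 1.96e-08), Col3a1 (7.58 ± 0.41, adjusted p = 8.83e-08) and the growth factor receptor Pdgfrb (8.27 ± 0.39, adjusted p = 3.48e-08) shared this direction. Lum, a small proteoglycan of connective tissue named after its values were seen, was near 0 in both cultures. It read 1899, 3387 and 8259 in the 46LCNEC tumors and 213, 239 and 236 in the 57SCLC tumors and had an interaction of -3.47 ± 0.76 (SE, adjusted p = 0.00386), not called without 46LCNEC dish A (adjusted p = 0.011), 46LCNEC dish C (adjusted p = 0.0124), 57SCLC tumor 275 (adjusted p = 0.0107) or 57SCLC tumor 317 (adjusted p = 0.0102) or by edgeR or DESeq2. Fibroblast markers at or near 0 in both cultures thus rose in tumors of both lines, and the part of host fibroblasts in the matrix genes was not tested. The count of higher interactions was 5 without 46LCNEC dish B, 57SCLC tumor 275 or 57SCLC flask B, and that of lower ones 1 without 46LCNEC dishes A or C or 57SCLC tumors 275 or 317 and 0 by edgeR and DESeq2.

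Yap and Tead targets, which cells switch on when they spread on a stiff surface, rose in 57SCLC in 10 of 11 tested and fell in 46LCNEC in 5. None rose in 46LCNEC (1 without 46LCNEC tumors 312 or 321 or 46LCNEC dish A), and 9 had a higher interaction. Ccn2, the connective tissue growth factor (chromosome 10, 24471333 to 24474900), read 12906, 13661 and 16801 normalized counts in the 46LCNEC dishes, 3389, 2102 and 1049 in the 46LCNEC tumors, 0, 0 and 0 in the 57SCLC flasks and 1958, 2119 and 2445 in the 57SCLC tumors. It had no read in any flask, rose at least 1202-fold in 57SCLC, and the groups of tumors of the lines overlapped. Ccn1, a matricellular relative, read 44372, 32544 and 37651 normalized counts in the 46LCNEC dishes, 5083, 5730.0 and 3089.8 in the 46LCNEC tumors, 6.55, 4.82 and 2.08 in the 57SCLC flasks and 2365, 1016 and 1837 in the 57SCLC tumors, and its interaction was 11.40 ± 0.51 (SE, adjusted p = 2.71e-08). For both genes the 46LCNEC tumors read below the dishes and the 57SCLC tumors above the flasks. For Ccn1 the tumors of the lines did not overlap. Axl, a receptor tyrosine kinase, was near 0 in the flasks (1.64, 0.603 and 0.521 normalized counts) and rose to 1913, 1094 and 2018 in 57SCLC tumors, with an interaction of 10.43 ± 0.34 (SE, adjusted p = 3.45e-09). Amotl2, a Yap-binding scaffold that the pathway induces, rose in 57SCLC and fell in 46LCNEC with an interaction of 3.05 ± 0.18 (SE, adjusted p = 1.84e-07).

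Integrins and laminins, the receptors and ligands by which cells hold to matrix, had 10 higher and 1 lower interactions among 15 tested. In this group 6 members fell in 46LCNEC and 6 rose in 57SCLC. Itga5, the fibronectin receptor chain, read 20915, 18213 and 20290.1 normalized counts in the 46LCNEC dishes, 8648, 11154 and 6226 in the 46LCNEC tumors, 3.27, 3.62 and 2.61 in the 57SCLC flasks and 1223, 818 and 1238 in the 57SCLC tumors and went up in 57SCLC and down in 46LCNEC (9.25 ± 0.30, adjusted p = 3.45e-09). Itga3, a laminin receptor chain, fell in 46LCNEC only. It read 18032, 16591 and 18055 normalized counts in the 46LCNEC dishes, 2456, 1883 and 2781 in the 46LCNEC tumors, 3421, 3196 and 2294 in the 57SCLC flasks and 2561, 2613 and 2713 in the 57SCLC tumors, so that the 46LCNEC tumors overlapped with both 57SCLC groups, and had an interaction of 2.75 ± 0.22 (SE, adjusted p = 2.57e-06). Itgb1, the common beta chain, differed less (1.2 ± 0.12, adjusted p = 1.28e-05). Of 12 actin and Srf targets, 9 had a higher interaction, among them Actn1, which cross-links actin (1.94 ± 0.15, adjusted p = 1.63e-06), the focal adhesion protein Vcl (1.59 ± 0.21, adjusted p = 0.000132) and the calponin Cnn2 (3.07 ± 0.32, adjusted p = 2.08e-05). Among matrix proteases and their inhibitors, 4 of 10 had a higher interaction, among them Mmp14, a membrane-bound collagenase (5.45, 3.62 and 1.56 in the flasks, 7609.9, 5091 and 7799 in the 57SCLC tumors, 9.30 ± 0.39, adjusted p = 1.43e-08), and Plaur, the urokinase receptor, which rose in 57SCLC and fell in 46LCNEC (5.13 ± 0.37, adjusted p = 9.17e-07).

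Genes that report growth factor signaling through the MAPK cascade followed the same pattern. Of 15 EGF receptor ligands and MAPK feedback genes, 12 had a higher and 1 a lower interaction. Dusp6, the phosphatase that inactivates ERK, read 2964, 2800.0 and 2777 normalized counts in the 46LCNEC dishes, 2808, 3674 and 3542 in the 46LCNEC tumors, 131, 152 and 135 in the 57SCLC flasks and 1022, 1119.8 and 1357 in the 57SCLC tumors, level in 46LCNEC and up in 57SCLC (2.83 ± 0.18, adjusted p = 4.25e-07). Dusp4, a nuclear phosphatase of the same family, rose in 57SCLC and fell in 46LCNEC (5.16 ± 0.34, adjusted p = 4.44e-07). Spry4, an inhibitor of receptor signaling, had no read in a flask and rose in both lines (242, 156 and 249.7 in 57SCLC tumors, 6.15 ± 0.38, adjusted p = 2.92e-07). Etv5, an ERK-induced transcription factor, rose in 57SCLC only (4.34 ± 0.28, adjusted p = 3.66e-07), and Ereg, the ligand epiregulin, rose there and fell in 46LCNEC (6.81 ± 0.40, adjusted p = 1.99e-07). The single lower interaction was not called in some fits, with 0 without 46LCNEC tumor 321, 46LCNEC dish C or 57SCLC tumor 275. Among 15 immediate early genes, 6 had a higher interaction, including Egr2 (6.51 ± 0.48, adjusted p = 1.21e-06), Egr1 (3.27 ± 0.48, adjusted p = 0.000297) and Junb (2.92 ± 0.22, adjusted p = 1.47e-06). For Egr1, dish A (13317 normalized counts) stood above dishes B and C (6329 and 5649.9), and the call was lost when all 15 samples, the lungs included, shared the estimate of the spread (adjusted p = 0.0243). Of 12 TGF-beta and BMP targets, 6 had a higher and 1 a lower interaction, the latter being 0 without 46LCNEC tumors 319 or 321, 46LCNEC dishes A, B or C, 57SCLC tumors 316 or 317 or 57SCLC flasks A, B or C and 2 without 46LCNEC tumor 312 or 57SCLC tumor 275. Of these 12, 6 rose and 4 fell in 57SCLC, and 1 rose and 4 fell in 46LCNEC. Over all genes 13.2% rose and 1.55% fell in 57SCLC. Smad7, the inhibitory Smad, rose in 57SCLC and fell in 46LCNEC (2.62 ± 0.22, adjusted p = 3.29e-06), while Ltbp2, a matrix protein of the latent TGF-beta binding family (10.06 ± 0.60, adjusted p = 2.15e-07), and Inhba, which encodes the activin A chain (5.24 ± 0.65, adjusted p = 7.98e-05), rose in 57SCLC only.

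NF-kB and inflammatory genes had 8 higher and 0 lower interactions among 13 tested, with 11 members up in 57SCLC and 5 in 46LCNEC. The latter count was 1 without 46LCNEC dish B, 2 without 46LCNEC dishes A or C or 57SCLC tumor 317 and 3 without 46LCNEC tumor 312 or 57SCLC flask B. Tnfaip3, the A20 protein that switches NF-kB off, read 1265, 905 and 999 normalized counts in the 46LCNEC dishes, 665, 743 and 752 in the 46LCNEC tumors, 90.6, 80.8 and 78.2 in the 57SCLC flasks and 534, 415 and 466 in the 57SCLC tumors. The flasks were lower than all other samples, and the interaction was 3.02 ± 0.21 (SE, adjusted p = 7.18e-07). The adhesion molecules Icam1 (3.92 ± 0.67, adjusted p = 0.000828) and Vcam1 (4.80 ± 0.40, adjusted p = 2.96e-06) and the chemokine Ccl7 (6.91 ± 0.60, adjusted p = 4.2e-06) had a higher interaction as well. Vcam1 and Ccl7 rose in both lines and Icam1 in 57SCLC only. Cxcl2, a neutrophil chemokine, had no read in the flasks and 43.1, 29.7 and 44.3 normalized counts in the 57SCLC tumors (3.61 ± 0.51, adjusted p = 0.000223). The 250 bases before its start in RefSeq (chr5:90903649-90903898, plus strand, GRCm38.p6) are shown because they hold the motif GGGANNTTC, searched on both strands, in capitals, where a match on each strand overlaps the other:
Cxcl2: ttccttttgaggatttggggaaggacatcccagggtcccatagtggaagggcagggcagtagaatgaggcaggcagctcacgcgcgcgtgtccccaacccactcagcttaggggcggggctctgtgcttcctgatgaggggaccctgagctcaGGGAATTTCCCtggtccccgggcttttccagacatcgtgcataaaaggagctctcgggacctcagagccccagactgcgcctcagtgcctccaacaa
The motif was found in 5 of 10 genes of the list with an entry and in 3.7% of all 27018 genes with such a window. A match is a description of letters and not of binding.

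Genes that fell in 57SCLC only were few, 85 in all, and the 5 chosen for naming, the largest by size above a set level of expression, had interactions of -3.34 to -2.47. Otud1, a deubiquitinase, read 596, 519 and 608 normalized counts in the 57SCLC flasks, 71.8, 77.9 and 126 in the 57SCLC tumors, 926, 923 and 879 in the 46LCNEC dishes and 746, 774 and 847 in the 46LCNEC tumors. All 57SCLC tumors lay below all other samples, and the interaction was -2.47 ± 0.26 (SE, adjusted p = 2.04e-05). Mamld1, a transcriptional coactivator, read 537, 534 and 726 normalized counts in the 57SCLC flasks, 101, 83.5 and 121 in the 57SCLC tumors, 474, 407 and 348 in the 46LCNEC dishes and 363, 599 and 444 in the 46LCNEC tumors, again lowest in the 57SCLC tumors (-2.72 ± 0.31, adjusted p = 3.69e-05). The glycosyltransferase gene Extl1 (-2.70 ± 0.52, adjusted p = 0.00183), the chromatin reader Dpf3 (-2.57 ± 0.55, adjusted p = 0.00369) and the calcium channel subunit Cacnb2 (-3.34 ± 0.71, adjusted p = 0.00341) were the others. Dpf3 was not called without 46LCNEC dish C (adjusted p = 0.0117), 57SCLC tumor 275 (adjusted p = 0.011) or 57SCLC tumor 316 (adjusted p = 0.0102), and Cacnb2 was not called without 46LCNEC dish A (adjusted p = 0.0102), 46LCNEC dish C (adjusted p = 0.0103) or 57SCLC flask B (adjusted p = 0.0102).

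Nearly all genes of cholesterol and fatty acid synthesis fell in 46LCNEC tumors, and all but 1 of those tested did not pass the threshold in 57SCLC tumors. The enzymes of both pathways are induced by the Srebp transcription factors when cells lack sterols. All 19 cholesterol genes tested fell in 46LCNEC, and 1 fell in 57SCLC (0 without 57SCLC tumors 316 or 317 or 57SCLC flask C and 2 without 57SCLC flasks A or B). The interaction was higher for 9 of the 19 and lower for none. At an unadjusted p under 0.05 it differed for 18 of them. The medians were -1.88 in 46LCNEC and -0.68 in 57SCLC. Of 10 fatty acid genes, 9 fell in 46LCNEC and 0 in 57SCLC, and 7 had a higher interaction.

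Fdft1, squalene synthase (chromosome 14, 63382189 to 63417027), read 2325, 3440.1 and 3578 normalized counts in the 46LCNEC dishes, 707, 861 and 706 in the 46LCNEC tumors, 1104, 1192 and 1817 in the 57SCLC flasks and 1274, 1277 and 1348 in the 57SCLC tumors. Every flask lay below every dish, the 46LCNEC tumors lay below all other samples, and flasks and tumors of 57SCLC overlapped. Its interaction was 1.98 ± 0.28 (SE, adjusted p = 0.00021), beside changes of -2.02 ± 0.20 in 46LCNEC and -0.04 ± 0.20 in 57SCLC, the latter not called. Insig1, which holds Srebp back when sterols abound, read 5565, 6831 and 6949.9 normalized counts in the 46LCNEC dishes, 1262, 2163 and 1204 in the 46LCNEC tumors, 2426, 2385 and 4948 in the 57SCLC flasks and 2566, 2894 and 2316 in the 57SCLC tumors. In 46LCNEC the groups did not overlap, and in 57SCLC the tumors overlapped with the flasks. Its interaction of 1.86 ± 0.39 (SE, adjusted p = 0.00314) was not called without 46LCNEC dish B (adjusted p = 0.0101) or 46LCNEC dish C (adjusted p = 0.0108).

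Scd2, a stearoyl desaturase, read 160526, 152723 and 153696 normalized counts in the 46LCNEC dishes, 16613, 28571 and 17015 in the 46LCNEC tumors, 17971, 17228 and 46492 in the 57SCLC flasks and 27899.7, 18301 and 19643 in the 57SCLC tumors. It was 7.51-fold lower in the 46LCNEC tumors, with no overlap with the dishes, and had an interaction of 2.78 ± 0.48 (SE, adjusted p = 0.000905). In 57SCLC, flask C stood above A and B and above every tumor. Fads2, which desaturates polyunsaturated fatty acids, read 14064, 14036 and 13651 normalized counts in the 46LCNEC dishes, 2807, 2853 and 2161 in the 46LCNEC tumors, 5446, 5438 and 8163 in the 57SCLC flasks and 6695, 6072 and 4741 in the 57SCLC tumors (2.32 ± 0.25, adjusted p = 2.42e-05). Fads1 (1.76 ± 0.15, adjusted p = 4.82e-06), the elongase Elovl6 (1.95 ± 0.28, adjusted p = 0.00023), Fasn, the fatty acid synthase itself (1.02 ± 0.18, adjusted p = 0.000945), and Srebf1, which encodes Srebp1 (2.00 ± 0.31, adjusted p = 0.000451), shared the direction. Fasn lost its call without 46LCNEC tumor 312 (adjusted p = 0.00125), 57SCLC flask A (adjusted p = 0.00366), 57SCLC flask B (adjusted p = 0.00379) or 57SCLC tumor 275 (adjusted p = 0.00223). Flask C was the highest 57SCLC flask for Fdft1, Insig1, Scd2, Fads2 and Srebf1. Without it the cholesterol list had 11 and the fatty acid list 8 members with a higher interaction. The cholesterol count was 5 without 46LCNEC dishes B or C.

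**Figure D4:**
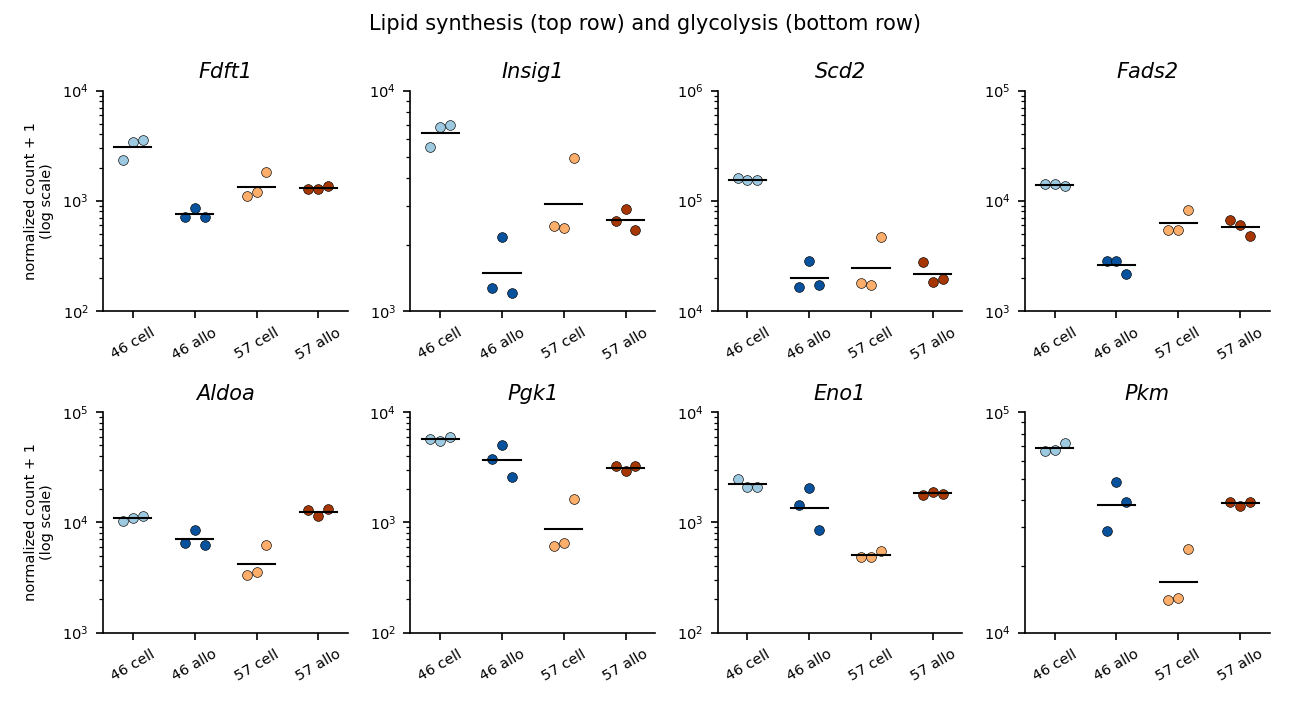
Normalized counts plus 1 on log axes of 4 lipid genes (Fdft1, Insig1, Scd2, Fads2; top row) and 4 glycolysis genes (Aldoa, Pgk1, Eno1, Pkm; bottom row), a point per sample and a bar at the mean of the log values. Lipid genes are highest in the 46LCNEC dishes and drop in the 46LCNEC tumors, while glycolysis genes are lowest in the 57SCLC flasks and rise in the 57SCLC tumors; flask C lies above flasks A and B for most of the 8.

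Several enzymes of glycolysis rose in 57SCLC tumors only, and several genes of the hypoxia response rose in both lines. Of 20 genes of glycolysis and the hypoxia response, 16 rose in 57SCLC and 5 in 46LCNEC, none fell in either, and 10 had a higher interaction. The number up in 57SCLC was 10 without 57SCLC flasks A or B, the number up in 46LCNEC 3 without 46LCNEC tumor 319 or 46LCNEC dishes A, B or C, and the number down in 46LCNEC 2 without 46LCNEC tumor 319. The median change was 1.86 in 57SCLC and -0.15 in 46LCNEC. Aldoa, the aldolase that splits fructose bisphosphate (chromosome 7, 126393822 to 126399923), read 10289, 10962 and 11371 normalized counts in the 46LCNEC dishes, 6524, 8516 and 6208 in the 46LCNEC tumors, 3353, 3564 and 6178 in the 57SCLC flasks and 12919, 11407 and 13272 in the 57SCLC tumors. Flask C was again above A and B and below every 57SCLC tumor, and the interaction was 2.21 ± 0.28 (SE, adjusted p = 0.000104). Pgk1, the first enzyme of the pathway to yield ATP, read 614, 644 and 1626 normalized counts in the 57SCLC flasks, 3282, 2936 and 3234 in the 57SCLC tumors, 5724, 5462 and 5921 in the 46LCNEC dishes and 3752, 5049 and 2561 in the 46LCNEC tumors (2.51 ± 0.46, adjusted p = 0.00126). Pkm, pyruvate kinase (2.04 ± 0.30, adjusted p = 0.000307), Eno1, enolase (2.57 ± 0.33, adjusted p = 0.000106), and Ldha, lactate dehydrogenase, named after its values were seen (2.82 ± 0.56, adjusted p = 0.00224), also rose in 57SCLC only. For the isomerase Tpi1 (1.60 ± 0.29, adjusted p = 0.00131) and for Gapdh (1.52 ± 0.27, adjusted p = 0.000941) the interaction passed and the change of neither line did. These enzymes have many processed pseudogenes, and Eno1 has a nearly identical copy, so that their absolute counts are uncertain. Without flask C the list had 12 higher interactions.

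The 5 genes of the same list that rose in both lines do not encode steps of glycolysis itself, and 3 of them are named after their values were seen. Ndrg1, a stress protein of hypoxic cells, changed by 3.50 ± 0.63 in 57SCLC and 3.46 ± 0.63 in 46LCNEC (log2 ± SE). Egln3, a prolyl hydroxylase that marks Hif for destruction, changed by 2.45 ± 0.52 and 2.95 ± 0.52, and Car9, a carbonic anhydrase used as a hypoxia marker, by 3.04 ± 0.65 and 4.55 ± 0.65. Car9 read 659.6, 3033 and 423 in the 46LCNEC tumors, so that the rise differed widely among them. The core of the hypoxia response element, ACGTG, was searched on both strands in the 250 bases before each start, and 13 of 20 genes of the list with an entry held it, against 18.5% of all genes. The windows of 3 enzymes that differed between the lines are printed with the motif in capitals, written CACGT where it lies on the other strand (GRCm38.p6; Aldoa chr7:126799179-126799428, minus strand; Pgk1 chrX:106186850-106187099, plus strand; Pkm chr9:59656977-59657226, plus strand):
Aldoa: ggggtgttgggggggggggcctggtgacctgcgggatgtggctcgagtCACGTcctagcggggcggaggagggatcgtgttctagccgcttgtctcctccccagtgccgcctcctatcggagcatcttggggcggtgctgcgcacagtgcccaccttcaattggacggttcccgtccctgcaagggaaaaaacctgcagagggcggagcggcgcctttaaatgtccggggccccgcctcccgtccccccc
Pgk1: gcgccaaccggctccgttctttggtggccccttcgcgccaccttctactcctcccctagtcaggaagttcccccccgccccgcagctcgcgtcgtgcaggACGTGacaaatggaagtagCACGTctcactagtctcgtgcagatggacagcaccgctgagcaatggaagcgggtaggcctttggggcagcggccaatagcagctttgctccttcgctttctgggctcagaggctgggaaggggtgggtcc
Pkm: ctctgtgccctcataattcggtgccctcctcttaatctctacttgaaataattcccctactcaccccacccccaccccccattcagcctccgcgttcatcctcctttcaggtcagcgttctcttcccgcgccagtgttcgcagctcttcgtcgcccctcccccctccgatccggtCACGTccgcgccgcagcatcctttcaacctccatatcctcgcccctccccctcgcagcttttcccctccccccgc
Pgk1 holds 2 matches, Aldoa and Pkm 1 each. The letters alone say nothing of whether Hif binds there in either line.

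Some respiratory chain and ribosomal protein transcripts also fell in 46LCNEC only. Of 9 respiratory chain genes of the mitochondrial genome, 6 fell in 46LCNEC and 0 in 57SCLC, and 4 had a higher interaction. mt-Nd1, a subunit of complex I, read 178935, 216740 and 242279 normalized counts in the 46LCNEC dishes, 54928, 47150.3 and 84591 in the 46LCNEC tumors, 70042, 67389 and 75100.4 in the 57SCLC flasks and 104453, 64036 and 64609.6 in the 57SCLC tumors (1.90 ± 0.34, adjusted p = 0.00115), and mt-Cytb of complex III had an interaction of 1.66 ± 0.32 (SE, adjusted p = 0.00188). The count was 2 without 46LCNEC dish C or 57SCLC flasks A or B. Ribosomal proteins had 4 higher interactions of 12, with a median of 0.80, and 2 without 46LCNEC dish C or 57SCLC tumor 275. Rpl10a led them with 8865, 10107 and 11739.6 normalized counts in the 46LCNEC dishes, 2048, 1616 and 2299 in the 46LCNEC tumors, 2422, 2330.4 and 2112 in the 57SCLC flasks and 2394, 1751 and 2019 in the 57SCLC tumors (2.21 ± 0.22, adjusted p = 1.25e-05). Both lists contain genes with nuclear or processed copies, and their levels are uncertain for that reason. Replication and mitosis genes had 1 higher interaction each (2 for replication without 46LCNEC tumor 312 and 2 for mitosis without 46LCNEC tumor 319), the licensing factor Cdc6 (1.16 ± 0.14, adjusted p = 8.02e-05) and the mitotic kinase Cdk1 (1.09 ± 0.17, adjusted p = 0.000407). Of these genes 7 of 16 and 4 of 15 fell in 46LCNEC, and 1 and 0 in 57SCLC. The summed levels of both lists were nevertheless lower in tumors than in cultures of both lines. In 57SCLC they were 44977 to 50755 in flasks and 36604.5 to 40828 in tumors for replication. For mitosis they were 73984 to 78918 and 51909.5 to 62216. The median changes were -0.32 and -0.41 in 57SCLC and -0.95 and -0.58 in 46LCNEC for replication and mitosis. The part of cell division rate and of host RNA in these falls was not tested.

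Targets of the glucocorticoid receptor, which hydrocortisone in the medium activates, fell in 46LCNEC in 6 of 12 and in 57SCLC in 2 (1 without 57SCLC tumor 275 or 57SCLC flask C), and 5 had a higher interaction. The part of hydrocortisone in these changes was not tested. Sgk1, a kinase induced by steroids, read 13688, 13476 and 14898 normalized counts in the 46LCNEC dishes, 2585, 2079.8 and 2301 in the 46LCNEC tumors, 783, 779 and 1043 in the 57SCLC flasks and 402, 408 and 569.7 in the 57SCLC tumors, lower in every tumor than in any culture of its line (1.68 ± 0.22, adjusted p = 0.000112). Zbtb16, a zinc finger factor strongly induced by glucocorticoids, fell in both lines, and read 2074, 1989.9 and 1677 normalized counts in the 46LCNEC dishes, 47.7, 23.2 and 67.5 in the 46LCNEC tumors, 3543, 3411 and 6920.1 in the 57SCLC flasks and 752, 1154 and 824 in the 57SCLC tumors (3.18 ± 0.50, adjusted p = 0.000489). Tsc22d3, the leucine zipper GILZ, had an interaction of 1.11 ± 0.22 (SE, adjusted p = 0.00231) and was not called without 46LCNEC tumor 319 (adjusted p = 0.00375) or 57SCLC flask A (adjusted p = 0.00737), and the list had 3 without 57SCLC flask A.

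Among genes that rose in 46LCNEC tumors only, the 5 chosen for naming by size were genes that 57SCLC cells expressed in culture and 46LCNEC cells hardly did. Prkcb, a protein kinase C, read 2.81, 3.31 and 0 normalized counts in the 46LCNEC dishes, 1339, 839.9 and 2242 in the 46LCNEC tumors, 1056, 1004 and 1385 in the 57SCLC flasks and 809, 869 and 1177 in the 57SCLC tumors. The dishes were near 0, the other 9 samples overlapped, and the interaction was -9.34 ± 0.70 (SE, adjusted p = 1.3e-06). Shank3, a scaffold of excitatory synapses, read 10.3, 16.6 and 8.46 normalized counts in the 46LCNEC dishes, 1699, 3867 and 4194 in the 46LCNEC tumors, 308, 250.3 and 229.8 in the 57SCLC flasks and 445, 371 and 489 in the 57SCLC tumors (-7.21 ± 0.46, adjusted p = 3.7e-07), with the 46LCNEC tumors above all 57SCLC samples. P2ry6, a receptor for uridine diphosphate (-8.35 ± 0.42, adjusted p = 5.81e-08), Fgd2, a Cdc42 exchange factor (-7.35 ± 0.63, adjusted p = 3.72e-06), and AI593442, an uncharacterised gene (-9.45 ± 1.68, adjusted p = 0.00107), were the others, the last with 46LCNEC tumors from 136 to 2476 normalized counts. Prkcb, P2ry6 and Fgd2 are also expressed by leukocytes, and macrophage markers rose in the same tumors, and the share of host cells in these rises was not tested. Slc40a1, the iron exporter ferroportin, followed the pattern, at 3.75, 4.41 and 6.92 normalized counts in the 46LCNEC dishes, 1219, 306 and 444 in the 46LCNEC tumors, 1526, 1584 and 1023 in the 57SCLC flasks and 1113, 1769.5 and 1295 in the 57SCLC tumors (-6.53 ± 0.59, adjusted p = 6.66e-06). Macrophages express it as well. On the list of iron genes it was the only one of 8 with a lower interaction, and 3 were higher, among them Cp, the ferroxidase ceruloplasmin (8.42 ± 1.10, adjusted p = 0.000115).

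**Figure D5:**
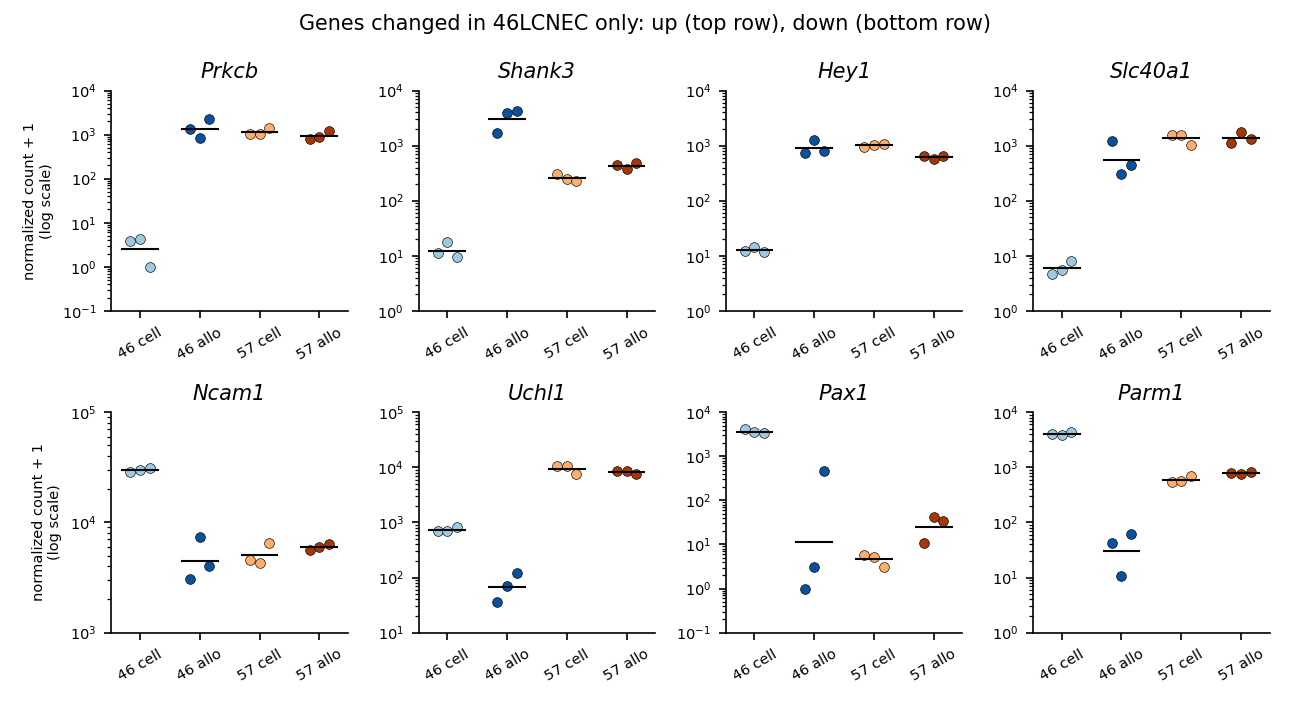
Normalized counts plus 1 on log axes of genes that changed in 46LCNEC only: Prkcb, Shank3, Hey1 and Slc40a1 up (top row), Ncam1, Uchl1, Pax1 and Parm1 down (bottom row), a point per sample and a bar at the mean of the log values. In the top row the 46LCNEC dishes lie far below the other 9 samples; in the bottom row the 46LCNEC tumors lie below the dishes, and the change from 57SCLC flasks to tumors was not called for any of the 4.

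The interactions of Notch genes had both signs. Of 13 tested, 2 had a higher and 5 a lower interaction. In 57SCLC 6 of them rose and in 46LCNEC 7, and none fell in either line (1 fell in 46LCNEC without 46LCNEC tumor 319). Hey1, a repressor that active Notch induces, read 11, 13.2 and 10.8 normalized counts in the 46LCNEC dishes, 726, 1265 and 789 in the 46LCNEC tumors, 931, 1025 and 1074 in the 57SCLC flasks and 646, 575 and 656 in the 57SCLC tumors, up in 46LCNEC only, with 46LCNEC tumors at the level of 57SCLC cells and tumors (-6.83 ± 0.27, adjusted p = 1.15e-08). Dll1, a ligand, rose in 46LCNEC only (-3.77 ± 0.34, adjusted p = 6.29e-06), and Dll4, the ligand of sprouting vessels, in both (-2.80 ± 0.37, adjusted p = 0.00012). Notch3, the receptor of vascular mural cells, read 25.3, 11 and 14.6 normalized counts in the 46LCNEC dishes, 2158, 2711 and 925 in the 46LCNEC tumors, 137, 124 and 131 in the 57SCLC flasks and 519, 519.5 and 569 in the 57SCLC tumors and rose in both lines, further in 46LCNEC (-4.66 ± 0.51, adjusted p = 2.99e-05), as did Heyl, named after its values were seen (-5.43 ± 0.74, adjusted p = 0.000174). Notch2 went the other way. It read 12.5, 10.9 and 10.9 in the flasks and 428, 349.7 and 424 in the 57SCLC tumors against 10599, 10724 and 11171 and 7589, 9117 and 11302 in 46LCNEC (5.24 ± 0.20, adjusted p = 7.59e-09). Rest, which silences neuronal genes, rose in 57SCLC only, from 6.55, 9.05 and 5.73 to 201, 160.0 and 255 (4.03 ± 0.29, adjusted p = 9.17e-07). Notch3 is also on the list of 8 pericyte and smooth muscle markers, of which 7 rose in 57SCLC, while 5 rose and 2 fell in 46LCNEC. Notch3 was the only member with a lower interaction, and the median interaction of the list was 2.14. Rgs5, a marker of pericytes, rose in both lines with a higher interaction (6.31 ± 0.45, adjusted p = 8.19e-07), opposite in direction to Notch3 and Heyl. The part of mural cells in these changes was not tested.

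Genes that fell in 46LCNEC only included neural ones. Ncam1 fell by 2.73 on the log2 scale in 46LCNEC (28614, 29684 and 31510 in dishes, 3058, 7384 and 4040.0 in tumors) and read 4598, 4291 and 6449 and 5647, 6039 and 6376 in 57SCLC flasks and tumors, an interaction of 2.99 ± 0.36 (SE, adjusted p = 6.51e-05). The 46LCNEC tumors overlapped with the 57SCLC samples. Uchl1, a neuronal deubiquitinase used as a neuroendocrine marker, read 699, 689 and 816 normalized counts in the 46LCNEC dishes, 34.4, 69.5 and 121 in the 46LCNEC tumors, 10582, 10710 and 7581 in the 57SCLC flasks and 8632, 8572 and 7496 in the 57SCLC tumors (3.24 ± 0.47, adjusted p = 0.000247). Of 16 neuroendocrine genes 4 had a higher interaction. Chga was not among them, with 18.5, 1.05 and 12.2 normalized counts in the 46LCNEC tumors. The list count was 2 without 46LCNEC dishes B or C, 57SCLC tumors 275, 316 or 317 or 57SCLC flasks A, B or C. Of 14 synaptic genes 2 had a higher and 1 a lower interaction. Over all genes 10.8% had a higher and 6.78% a lower interaction. The synaptic counts lie near these shares and say little about that list. Snap25 and Rab3c, of synaptic vesicle release, fell in 46LCNEC. Snap25 read 39.4, 22.1 and 20.8 in the dishes and 0, 0 and 1.11 in the tumors, and Rab3c 9.38, 17.7 and 15.4 and 0, 1.05 and 2.21, while the 57SCLC tumors read 2521, 3178 and 3029 and 2456, 3038 and 3184. The interactions were 4.19 ± 0.45 (SE, adjusted p = 2.56e-05) for Snap25 and 2.93 ± 0.53 (SE, adjusted p = 0.00117) for Rab3c. Rab3a on the same list had a lower interaction (-1.27 ± 0.19, adjusted p = 0.00029). The 46LCNEC values of Snap25 and Rab3c rest on few reads, and Rab3c was not called with a pseudocount of 0.1.

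The 5 largest interactions among genes down in 46LCNEC only that met the level for naming were those of Pax1, Ntm, Ppp2r2b, Zmat4 and Parm1. Parm1, a mucin-like membrane protein, read 3986, 3916 and 4321 normalized counts in the 46LCNEC dishes, 41.1, 9.47 and 60.8 in the 46LCNEC tumors, 535, 566 and 706 in the 57SCLC flasks and 792, 766 and 833 in the 57SCLC tumors. The dishes were above all 57SCLC samples and the 46LCNEC tumors below them (7.49 ± 0.67, adjusted p = 5.29e-06). Pax1, a developmental transcription factor, read 4075, 3491 and 3357 in the dishes and 0, 2.11 and 457 in the tumors, so that tumor 321 kept 457 where the others had almost none. Its interaction was 10.77 ± 2.34 (SE, adjusted p = 0.00378), not called by edgeR or DESeq2 or without 46LCNEC dish A (adjusted p = 0.0105), 46LCNEC dish B (adjusted p = 0.0104), 46LCNEC dish C (adjusted p = 0.0109), 57SCLC tumor 316 (adjusted p = 0.011) or 57SCLC tumor 317 (adjusted p = 0.0109). Ntm, a neural adhesion molecule (7.88 ± 1.54, adjusted p = 0.00199), Ppp2r2b, a phosphatase subunit of brain (7.79 ± 1.49, adjusted p = 0.00169), and the zinc finger gene Zmat4 (7.69 ± 0.81, adjusted p = 2.14e-05) were also down in 46LCNEC only. Ntm and Ppp2r2b were not called with a pseudocount of 0.1.

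Opposite directions in the lines were called for 180 genes. Cyp1b1, a xenobiotic-metabolising cytochrome, had the largest interaction of those that rose in 57SCLC and fell in 46LCNEC and met the expression level set for naming. It read 55469, 51318 and 51702 normalized counts in the 46LCNEC dishes, 358, 16.8 and 369 in the 46LCNEC tumors, 3.27, 3.02 and 1.04 in the 57SCLC flasks and 852, 386 and 635 in the 57SCLC tumors (16.14 ± 1.27, adjusted p = 2.04e-06). Krt19, a simple epithelial keratin, read 6425, 7443 and 6839 normalized counts in the 46LCNEC dishes, 23.8, 5.26 and 11.1 in the 46LCNEC tumors, 14.7, 17.5 and 65.1 in the 57SCLC flasks and 122, 112 and 137 in the 57SCLC tumors (11.34 ± 0.75, adjusted p = 5.13e-07), so that the order of the lines was inverted in the tumors. In the other direction, Igfbp5, a secreted binding protein of insulin-like growth factors, was among the abundant transcripts. It read 4759.7, 4554 and 3157 normalized counts in the 46LCNEC dishes, 106127, 152172 and 182373 in the 46LCNEC tumors, 153560, 146352 and 140787 in the 57SCLC flasks and 30016, 34266 and 30796 in the 57SCLC tumors (-7.34 ± 0.28, adjusted p = 7.59e-09), with the lines trading places. Robo2, an axon guidance receptor, read 2.81, 5.52 and 1.54 normalized counts in the 46LCNEC dishes, 948, 229 and 847 in the 46LCNEC tumors, 728, 756 and 1622 in the 57SCLC flasks and 45.5, 8.49 and 3.4 in the 57SCLC tumors (-13.43 ± 1.12, adjusted p = 3.06e-06). Cys1, a protein of the primary cilium (-6.36 ± 0.68, adjusted p = 2.4e-05), Slc2a13, a myo-inositol transporter (-6.07 ± 0.53, adjusted p = 4.88e-06), and Gsta4, a glutathione transferase that clears lipid aldehydes (-5.08 ± 0.75, adjusted p = 0.000307), completed the 5.

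Macrophage markers and most endothelial markers rose in tumors of both lines, and the lines differed for some of them. Macrophage markers summed to 524 to 579 normalized counts in the dishes and 393 to 417 in the flasks, 53409.7 to 115215 in the 46LCNEC and 23242 to 42286 in the 57SCLC tumors. Of 11 tested all rose in both lines, and 1 had a higher and 5 a lower interaction. In 8 of the 11 at least 1 group was at or under 3 reads in every library. The median interaction was -1.71, and -0.90 with groups at the floor set to 3 reads. Among genes above 3 reads in every group, 0 members had a higher and 1 a lower interaction, with fewer members tested. For the lower ones named here the flasks held more than the dishes. C1qa, a complement subunit of macrophages, read 0, 1.1 and 1.54 in the dishes and 45.8, 44 and 31.3 in the flasks, and 16686, 11214 and 29839 and 14066, 6304 and 11324 in the tumors (-5.37 ± 0.59, adjusted p = 3.29e-05). Lyz2 (-4.15 ± 0.46, adjusted p = 3.39e-05), Mrc1 (-3.85 ± 0.49, adjusted p = 0.000105) and Fcgr1 (-5.02 ± 0.66, adjusted p = 0.000125) also had lower interactions. Cd14, which 46LCNEC cells expressed in culture (181, 184 and 191 against 0.545, 1.81 and 0), had a higher interaction, 4.61 ± 0.44 (SE, adjusted p = 9.44e-06). Endothelial markers had 2 higher and 2 lower interactions of 12, the latter 0 without 46LCNEC tumors 312 or 321, 46LCNEC dishes B or C, 57SCLC tumors 316 or 317 or 57SCLC flasks A or B, 1 without 46LCNEC dish A, 57SCLC tumor 275 or 57SCLC flask C and 4 without 46LCNEC tumor 319, with medians of the change of 7.13 and 6.44 in 57SCLC and 46LCNEC. The higher ones were the VEGF receptors Kdr (6.71 ± 0.35, adjusted p = 7.86e-08) and Flt1 (6.28 ± 0.46, adjusted p = 1.16e-06), which the dishes already expressed at 281, 316 and 274 and 2226, 2325 and 2096. Pericyte and smooth muscle markers had 3 higher interactions, including Acta2 (8.65 ± 0.52, adjusted p = 2.13e-07), and 1 lower one of 8, that of Notch3, with 5 without 46LCNEC tumor 312 higher and 2 without 46LCNEC tumor 321 lower.

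No interaction was called by limma for T and natural killer cells, B and plasma cells, MHC class II, neutrophils, red blood cells, skeletal muscle or lung epithelium. The unadjusted p was under 0.05 for 0 of 8, 0 of 5, 3 of 7, 2 of 4, 0 of 3, 0 of 5 and 3 of 5 members, and edgeR called none of them. Of the 8 T and natural killer markers, 5 rose in 57SCLC and 2 in 46LCNEC, and leaving out single libraries moved these counts between 1 and 8 and between 1 and 7. DESeq2 called 1 each of MHC class II, skeletal muscle and lung epithelium. T and natural killer, B and plasma cell and MHC class II markers varied most among the 46LCNEC tumors. Red blood cell genes varied more among the 57SCLC tumors, with sums of 238 to 2276.5 against 368 to 846 in the 46LCNEC tumors. The sum over the T and natural killer list ran from 74.7 to 1847, highest in tumor 321, against 304 to 522 in 57SCLC tumors, and the list had 4 without 46LCNEC tumor 321. B and plasma cell genes had 1 without 46LCNEC tumor 321, MHC class II genes 2 without 46LCNEC tumor 321 higher and 1 without 46LCNEC tumor 319 lower, neutrophil genes 1 without 46LCNEC tumor 312 and 2 without 57SCLC tumor 275 lower, and muscle genes 1 without 57SCLC tumor 316. Of 3 keratinocyte markers 1 had a lower interaction (0 without 46LCNEC dishes B or C, 57SCLC tumor 317 or 57SCLC flasks A or B), and the single adipocyte marker tested a higher one.

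Many antigen presentation genes rose in both lines, and the immunoproteasome subunits rose further in 46LCNEC. Of 11 MHC class I genes, 8 rose in 57SCLC and 9 in 46LCNEC, and 3 had a lower interaction. The number up in 57SCLC was 4 without 57SCLC tumor 275 and 5 without 57SCLC tumor 317 or 57SCLC flasks A or B. Psmb8, an immunoproteasome subunit, read 33.8, 30.9 and 12.3 normalized counts in the 46LCNEC dishes, 682, 863 and 1829 in the 46LCNEC tumors, 34.9, 28.9 and 20.8 in the 57SCLC flasks and 189, 123 and 180.4 in the 57SCLC tumors (-2.88 ± 0.60, adjusted p = 0.00305), and its partner Psmb9 had -3.04 ± 0.58 (SE, adjusted p = 0.00174). Erap1, which trims peptides, rose in 46LCNEC only (-1.44 ± 0.21, adjusted p = 0.000298). Of 23 interferon-stimulated genes, 12 rose in 57SCLC and 18 in 46LCNEC, and 3 had a higher and 3 a lower interaction. Over all genes 10.8% had a higher and 6.78% a lower interaction, so counts this small say little about the list. The interaction counts were 5 without 46LCNEC tumor 321 for the higher and 1 without 46LCNEC dishes A or C, 57SCLC tumors 275 or 316 or 57SCLC flasks A or B for the lower. The higher ones were genes at or near 0 in the flasks. Gbp2, a guanylate-binding protein, read 0, 0 and 0 there and 737, 331 and 524 in the 57SCLC tumors, against 178, 224 and 184 and 805, 547 and 3736 in 46LCNEC (6.38 ± 0.79, adjusted p = 7.85e-05), and Gbp3 (4.40 ± 0.89, adjusted p = 0.00245, not called by edgeR) and Rtp4 (4.83 ± 0.53, adjusted p = 3.15e-05) were like it. Among the lower ones Usp18, which ends interferon signaling, read 0.938, 6.62 and 1.54 normalized counts in the 46LCNEC dishes, 11.9, 13.7 and 89.6 in the 46LCNEC tumors, 124, 119 and 145 in the 57SCLC flasks and 43.1, 31.1 and 37.4 in the 57SCLC tumors (-4.73 ± 0.97, adjusted p = 0.00264). Tumor 321 was the highest 46LCNEC tumor for each of the genes named in this paragraph.

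The motif GAAANNGAA, the core of the interferon response element, was found on either strand in the 250 bases before the start of 11 of 18 interferon genes and 4 of 12 MHC class I genes with an entry, and in 8.18% of all genes. Windows of 3 genes with a called interaction, 2 higher and 1 lower, show it in capitals, on whichever strand it lies (GRCm38.p6; Gbp2 chr3:142620413-142620662, plus strand; Gbp3 chr3:142559794-142560043, plus strand; Erap1 chr13:74639603-74639852, plus strand):
Gbp2: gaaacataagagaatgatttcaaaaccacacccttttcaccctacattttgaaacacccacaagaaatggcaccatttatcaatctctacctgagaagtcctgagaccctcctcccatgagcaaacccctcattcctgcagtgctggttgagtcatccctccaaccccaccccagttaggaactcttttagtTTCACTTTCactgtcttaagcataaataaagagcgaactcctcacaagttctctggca
Gbp3: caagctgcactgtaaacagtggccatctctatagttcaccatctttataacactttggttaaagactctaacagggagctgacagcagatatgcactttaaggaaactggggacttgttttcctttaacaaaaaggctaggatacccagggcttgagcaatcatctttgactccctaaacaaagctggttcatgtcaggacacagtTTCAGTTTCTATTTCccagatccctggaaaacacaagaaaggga
Erap1: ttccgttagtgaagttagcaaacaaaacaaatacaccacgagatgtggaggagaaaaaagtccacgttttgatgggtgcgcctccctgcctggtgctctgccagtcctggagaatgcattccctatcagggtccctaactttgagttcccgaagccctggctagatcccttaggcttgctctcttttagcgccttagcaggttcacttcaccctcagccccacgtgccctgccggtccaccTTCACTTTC
The motif is thus present before genes of both directions, which says nothing of the factors that bind there.

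In the remaining lists fewer members passed the threshold. Over all genes 10.8% had a higher and 6.78% a lower interaction, so the small counts below say little about their lists. Of 18 genes of amino acid supply and the Atf4 response none was called in the interaction by limma, edgeR or DESeq2, with 5 at an unadjusted p under 0.05 (1 higher without 57SCLC flask C and 1 lower without 46LCNEC tumor 321). The interaction was 0.30 ± 0.19 (SE, adjusted p = 0.24) for Atf4 itself and 0.24 ± 0.24 (SE, adjusted p = 0.463) for the serine synthesis enzyme Psat1. The motif TGATGNAAT stood before 1 of 17 of them and before 0.911% of all genes. Among 12 p53 targets, Phlda3 had a higher interaction (1.70 ± 0.20, adjusted p = 4.31e-05) and Sesn1 a lower one (-1.06 ± 0.14, adjusted p = 0.000114), the latter not called without 46LCNEC tumor 321 (adjusted p = 0.000235) or 57SCLC flask C (adjusted p = 0.000238), and the lower count was 0 without 57SCLC flask C and 2 without 46LCNEC tumor 319. Wnt targets had 2 higher and 1 lower of 9, the lower one being Axin2, the pathway's own inhibitor, at 53.5, 40.8 and 33.1 normalized counts in the 46LCNEC dishes, 189, 200.0 and 1309 in the 46LCNEC tumors, 1305, 1385 and 856 in the 57SCLC flasks and 436, 351 and 439 in the 57SCLC tumors (-4.62 ± 0.81, adjusted p = 0.00102, not called by DESeq2). The Wnt counts were 1 without 46LCNEC tumor 312, 46LCNEC dishes A, B or C, 57SCLC tumors 275, 316 or 317 or 57SCLC flasks A, B or C for the higher and 2 without 46LCNEC tumors 312 or 319 for the lower, and edgeR called 0 higher and 2 lower. Of 16 epithelial genes, Krt19 had a higher and 2 a lower interaction, with 3 without 46LCNEC tumor 321 and 4 without 46LCNEC tumor 312 higher and 1 without 46LCNEC tumors 312 or 321, 46LCNEC dish C, 57SCLC tumors 275, 316 or 317 or 57SCLC flasks A, B or C lower. NRF2 targets had 2 higher and 1 lower interactions of 10, the former 1 without 46LCNEC dishes B or C, 57SCLC tumors 275, 316 or 317 or 57SCLC flask C, and the latter 2 without 46LCNEC tumor 319 and 3 without 57SCLC flask C. Folding genes of the endoplasmic reticulum had 2 higher of 12, with 0 without 46LCNEC dish C, 57SCLC tumor 275 or 57SCLC flask A, 1 without 46LCNEC dish B or 57SCLC flask B and 4 without 46LCNEC tumor 319. Heat shock proteins had 1 higher of 10, with 0 without 46LCNEC tumor 321, 46LCNEC dish C, 57SCLC tumor 275 or 57SCLC flasks A or B, 2 without 57SCLC tumor 316 and 3 without 46LCNEC tumor 319, and DESeq2 called 0. At an unadjusted p under 0.05 the interaction differed for 8 of 12 p53 targets, 6 of 9 Wnt targets, 4 of 16 epithelial genes, 6 of 10 NRF2 targets, 9 of 12 folding genes and 9 of 10 heat shock genes. The median interaction was 0.80 for folding genes and 0.84 for heat shock genes, against 0.10 over all genes.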

How the data were processed

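Poly-A RNA of 3 dishes, 3 flasks and 3 allograft tumors of each line was sequenced. Per the study's methods, the authors aligned with Rbowtie2 to GRCm39, assigned reads to GENCODE genes with featureCounts of Rsubread and normalized with DESeq2. How strand and multiple hits were treated is not given in the sources used here. The deposited values are a signal per gene, read counts divided by a size factor per sample, in 1 table. Dividing by the step between low values gave whole reads for 100% of the values in each sample (tolerance 0.1 read) and totals of 9480244 to 44876572. Floors of 3 reads cover counting error only, whereas the 95% intervals of interactions come from the fit and cover the spread among samples.

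Groups came from the labels. limma 3.58.1 (R 4.3.3) with a mean-variance trend was fitted to log2(normalized count + 1) of the 12 samples, with 4 group means and 8 residual degrees of freedom. The 18440 genes tested had 10 or more normalized counts in 3 or more samples. The threshold was an adjusted p (Benjamini-Hochberg, all tested genes) no greater than 0.01 together with a log2 difference of 1 or more, and rose and fell refer to that threshold. The scale understates changes of low genes. A group with no read was set to 3 reads per library to bound a fold. The fit was tested on simulated data for the interaction, where it called 80% of 100 genes changed by 2 and 99% of 100 changed by 3 on the log2 scale, with 10 other calls among 18226 genes. The simulation gave all genes and samples the same dispersion, and the changed genes were drawn from the better expressed ones. Real replicates differed by a chi-square per degree of freedom of 2.8 to 144, so these rates do not carry over to the data. On the recovered reads edgeR 4.0.16 called 1860 higher and 1195 lower interactions, and DESeq2 1.42.0 2096 and 1554. Other scalings, pseudocounts, filters, thresholds, sample weights, a fit with the lungs, a replicate block and omission of each sample were tried.

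The members and the 44 lists were chosen with earlier results of these data known. Named genes were Rb1, Rbl1 and Trp53, the 5 largest interactions of each pattern among genes with 100 or more normalized counts throughout a group and 3 or more reads somewhere in every group (predicted and numbered genes passed over), up to 6 called members per list by adjusted p (or the 2 most abundant where none was called), and defining host markers. Not all are printed, and some genes, 1 further deleted gene among them, are not reported here. Gene coordinates are of GRCm39. Promoter windows are from RefSeq on GRCm38.p6, and no coordinates were converted. Levels are not compared between genes.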

Additional observations from a re-analysis of the deposited data

Results flagged for a closer look

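The interaction is itself the test of a difference between 2 lines under the same contrast, and it passed for 3233 genes. The largest of them with opposite directions in the lines, among genes at the level set for naming, are listed here for a closer look. Among genes that rose in 57SCLC and fell in 46LCNEC, Cyp1b1 stood first with an interaction of 16.14, although the 46LCNEC tumors ranged from 16.8 to 369 normalized counts. Lox followed with 12.20, Ccn1 with 11.40, Krt19 with 11.34 and Loxl3 with 10.20. Cyp1b1, Lox, Ccn1 and Loxl3 were at or below 9.65 normalized counts in every flask, so the size of their interactions rests on few reads in 57SCLC culture.

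Among genes that fell in 57SCLC and rose in 46LCNEC, Robo2 stood first with -13.43, the 57SCLC tumors ranging from 3.4 to 45.5 normalized counts. Igfbp5 had -7.34 on at least 3157 normalized counts in every sample. Cys1 had -6.36, Slc2a13 -6.07 and Gsta4 -5.08. Most fibroblast markers and all 11 macrophage markers tested rose in the tumors of both lines, and their part in these differences was not tested.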

How the results depend on the processing

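Each count over all genes and by pattern kept within 1.5 times of its value under edgeR, DESeq2, the 3 other scalings, a pseudocount of 5, no filter and all 15 samples, and edgeR called 90.2% and DESeq2 92.7% of the 3233 interaction genes. The counts of higher and lower interactions per list, 88 in all, were less stable. Those that moved by over 1.5 times were 5 with edgeR, 15 with DESeq2, 0 to 3 with other scalings, 6 and 4 with pseudocounts of 0.1 and 5, 4 with no filter, 13 with genes above 3 reads, 14 at an adjusted p of 0.05, 31 against a fold change of 2, 2 with all 15 samples, 14 with weights and 9 with the block. With DESeq2 these included pericyte and smooth muscle markers (5 higher and 2 lower), interferon genes (5 lower), epithelial genes (2 higher), and integrin, TGF-beta, NRF2 and p53 genes (2 lower each), and with edgeR endothelial (1 lower) and adipocyte markers (0 higher). Testing against a fold change of 2 left 895 higher and 398 lower interactions, 1570 genes up and 53 down in 57SCLC and 1438 up and 504 down in 46LCNEC. By pattern it left 17 down in 57SCLC only, 319 up and 186 down in 46LCNEC only, 38 up in 57SCLC and down in 46LCNEC, 4 the other way, and 110 of the 198 called list genes. Keeping genes above 3 reads in every group left 1445 up and 170 down in 57SCLC, with 445 up and 45 down in 57SCLC only and 24 down in 57SCLC and up in 46LCNEC, with fewer genes tested. An adjusted p of at most 0.05 gave 458 down in 57SCLC, 138 of them in the interaction and in that line only, and 220 up in 57SCLC and down in 46LCNEC. Sample weights gave 705 down in 57SCLC, 154 in that line only, and 75 down there and up in 46LCNEC. A pseudocount of 0.1 gave 55 down in 57SCLC only. The cause was not tested for the last 3 settings.

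The letters A, B and C of dishes and flasks are not said to mark a shared batch. Same-letter deviations from the group means correlated at 0.0603, -0.073 and 0.00167, and only the A samples correlated best with their own letter. With a single sample per letter and line, these values cannot exclude a shared batch. With the letters as a replicate block the interaction counts were 1703 higher and 1048 lower, with 130 down in 57SCLC and 1123 down in 46LCNEC, and by pattern 52 down in 57SCLC only, 73 up in 57SCLC and down in 46LCNEC, and 14 the other way.

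Leaving out single libraries gave 1620 to 2369 higher and 988 to 1401 lower interactions, 2082 to 2668 up and 185 to 352 down in 57SCLC (185 without flask A and 187 without flask B), and 2526 to 3064 up and 1349 to 1963 down in 46LCNEC. The patterns ran from 575 to 779 (up) and 57 to 98 (down) in 57SCLC only, 670 to 929 (up) and 531 to 933 (down) in 46LCNEC only, 101 to 186 up in 57SCLC and down in 46LCNEC, and 25 to 49 the other way, with 25 without 57SCLC flask A, 26 without flask C or 46LCNEC dish B. Of 129 named genes with an interaction, 124 were called, 87 of them under all 26 settings. The interaction of Rbl1, not called, ranged from -0.0641 without 46LCNEC tumor 312 to 0.218 without tumor 319, and was -0.00158 without 57SCLC tumor 316. Depth limits genes near 3 reads per library most in the shallowest library, 57SCLC tumor 275 with 9480244 reads.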
